A study of Homo sapiens with 4 samples.

Results

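DNA replication genes are here a chosen list of 41 human genes. Their proteins license replication origins or limit licensing, unwind DNA, copy it or supply nucleotides for it. Their members were the spots whose gene symbol in the platform annotation was one of the 41, with PCLAF also accepted under its older symbol. This gave 42 spots of 40 genes among 29640 spots that were not controls. POLA1 had no such spot and so no ratio, and only its promoter was counted. A spot was measured where at least 1 of its channels exceeded local background by more than 2 background SD on every array used. By this rule 29 members were measured on all 4 arrays, among 8880 named genes, while 34 were measured on both DLD-1 arrays and 31 on both HT-29 arrays. MCM7, GINS1, RFC2 and RFC3 were measured in neither line.

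DLD-1 and HT-29 are established human colorectal cancer lines. RNA of cells given 1 µM 5-aza-2'-deoxycytidine for 96 h, after 24 h of growth without it, was compared on each array with RNA of untreated cells of the same line. The drug is a cytidine analogue that is built into newly made DNA and traps DNA methyltransferases there, so methylation is lost as cells divide. Both lines were hybridised in 2 orientations, on a forward array with the treated sample in Cy5 and on a swapped array with the dyes exchanged. Separate cultures are not named in the labels, so both arrays of a line together counted as 1 replicate. A limma p-value over the 2 lines sets a gene's mean against 1 spread between line means, estimated over all genes. It does not use the gene's own spread, and having only 4 arrays limits the precision throughout.

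All ratios are log2 of file channel 2 over file channel 1 after normalization. On the forward arrays the labels give channel 2 as treated. For the swapped arrays they list treated RNA first and in Cy3, but no dye is named in the scanner columns, so which channel holds treated RNA there is not settled. The working reading treats channel 2 as the treated sample throughout. Values in the labels' channel order, which turn the sign on both swapped arrays, stand beside the results. Across the 8880 genes, which are not independent replicates, the 2 DLD-1 arrays had r = −0.40 under the working reading and the 2 HT-29 arrays r = 0.02. The highest mean over both lines among these genes was 3.30 under the working reading and 1.63 in the labels' order. The lowest was −1.28 and −1.30. Which reading is right was not tested. Between 22073 and 25787 of the spots exceeded background in at least 1 channel of an array. Position in the 48 printed blocks accounted for 16.7% to 47.2% of the variance of an array's ratios. Of 10 epithelial and intestinal markers, 8 were above background on all 4 arrays; so were 6 of 8 markers of other cell types that had a spot, among them CD3E and COL1A1, while the endothelial cadherin CDH5 was above it on none. Summed over the markers, background-subtracted signal was 36997 to 140901 for the epithelial list and 7715 to 30979 for the other list, over the 8 channels. The counts of markers above background thus did not separate the lists, while the summed signals did not overlap.

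Replication starts when the origin recognition complex binds DNA and, with CDC6 and CDT1, loads the ring-shaped MCM helicase. The kinase CDC7, CDC45 and the GINS complex then switch the helicase on, primase with polymerase alpha lays down the first stretch of each strand, and the RFC complex loads the sliding clamp PCNA, which holds polymerases delta and epsilon on the template. In cycling cells many of these genes are transcribed together shortly before S phase under E2F transcription factors, so their transcripts are widely used as a sign of proliferation.

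The promoters of PCLAF, MCM6 and TYMS, which had the lowest mean ratios under the working reading (0.30, 0.13 and 0.32 in the labels' order), and of POLE, which was above 0 on all 4 arrays under the same reading, show the E2F-like letters found at many replication genes. The sequences are from RefSeq on build GRCh38.p14 and run 5′ to 3′ on the gene's strand over the 250 bases before an annotated start; capitals mark E2F-like matches and CCAAT boxes on either strand. They lie at chr15:64381442-64381691 (minus strand, PCLAF), chr2:135876444-135876693 (minus strand, MCM6), chr18:657403-657652 (plus strand, TYMS) and chr12:132687343-132687592 (minus strand, POLE).
PCLAF: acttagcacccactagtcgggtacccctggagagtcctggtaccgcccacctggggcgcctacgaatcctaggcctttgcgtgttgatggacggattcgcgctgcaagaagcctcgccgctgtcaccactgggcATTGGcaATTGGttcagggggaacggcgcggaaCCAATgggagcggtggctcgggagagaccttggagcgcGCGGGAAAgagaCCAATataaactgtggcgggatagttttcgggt
MCM6: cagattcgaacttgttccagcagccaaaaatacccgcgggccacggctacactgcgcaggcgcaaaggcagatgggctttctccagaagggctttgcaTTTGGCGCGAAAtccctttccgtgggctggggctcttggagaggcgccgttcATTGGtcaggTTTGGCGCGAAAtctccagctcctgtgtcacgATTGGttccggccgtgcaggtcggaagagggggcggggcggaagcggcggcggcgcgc
TYMS: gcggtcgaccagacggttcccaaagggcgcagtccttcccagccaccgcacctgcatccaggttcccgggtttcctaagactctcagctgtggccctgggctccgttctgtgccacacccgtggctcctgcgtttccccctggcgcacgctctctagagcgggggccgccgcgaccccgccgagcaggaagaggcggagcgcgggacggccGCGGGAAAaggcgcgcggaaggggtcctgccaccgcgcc
POLE: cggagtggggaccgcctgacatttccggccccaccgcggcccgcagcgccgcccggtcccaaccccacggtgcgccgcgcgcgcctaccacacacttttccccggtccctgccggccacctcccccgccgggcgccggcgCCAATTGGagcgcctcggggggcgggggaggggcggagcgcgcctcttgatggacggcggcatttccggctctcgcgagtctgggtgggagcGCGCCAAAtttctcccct
MCM6 had 4 E2F-like matches that overlapped in pairs, the first pair beginning 152 bases and the second 90 bases before the start. PCLAF had 1 match 45 to 38 bases before this start and 4 CCAAT boxes, and its other annotated start had neither. The single match of TYMS lay 39 to 32 bases and that of POLE 18 to 11 bases before the start. Members with like ratios but no E2F-like match are not shown. Among them were RPA1, also above 0 on all 4 arrays, RFC4 and MCM10, below 0 on all 4, and ORC1. The letters searched were TTTGGCGC, TTTCCCGC, TTTCGCGC and TTTGCCGC on both strands, over 250 bases before to 50 after each start.

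Of the 41 genes, 37 matched the promoter table by symbol, with 48 windows. An E2F-like match was found in 20 of these windows (41.7%), against 3.31% of all 35116 promoter windows in the table. CCAAT was found in 54.2% of member windows and 34.6% of all windows, and the median count of CG was 30 in member windows and 14 over all. Among members measured on all 4 arrays, the 14 with a match had a median log2 ratio of −0.30 over both lines (range −0.89 to 0.22), and the 11 without one had −0.14 (range −0.50 to 0.27). The ranges overlapped over most of their length, and in the labels' channel order the medians were 0.12 and 0.02. A match is a description of letters and no evidence of binding.

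Over both lines, 1 of the 29 members passed the limma test on the line means under the working reading. PCLAF, a small protein that rides on PCNA at replication forks, fell (mean log2 ratio −0.89, SE 0.216, limma adjusted p = 0.0192). That is 1.85-fold lower in treated cells under that reading, and the SE is the same for every gene. No member rose. Over all 8880 genes the same test called 0.0450% lower and 0.191% higher. At an unadjusted p under 0.05 there were 6 members lower (PCLAF, MCM6, TYMS, RFC4, ORC1 and PCNA) against 1.79% of all genes, and 0 higher against 3.20%. Read in the labels' channel order, no member passed in either direction, where 0.0225% of all genes were called lower and 0.653% higher. At an unadjusted p under 0.05 that order gave 5 members higher (CDC6, MCM3, ORC5, POLD2 and RPA2), against 9.22% of all genes, and 0 lower, against 1.84%. The plot of line means under both readings shows these values.

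**Figure D1:**
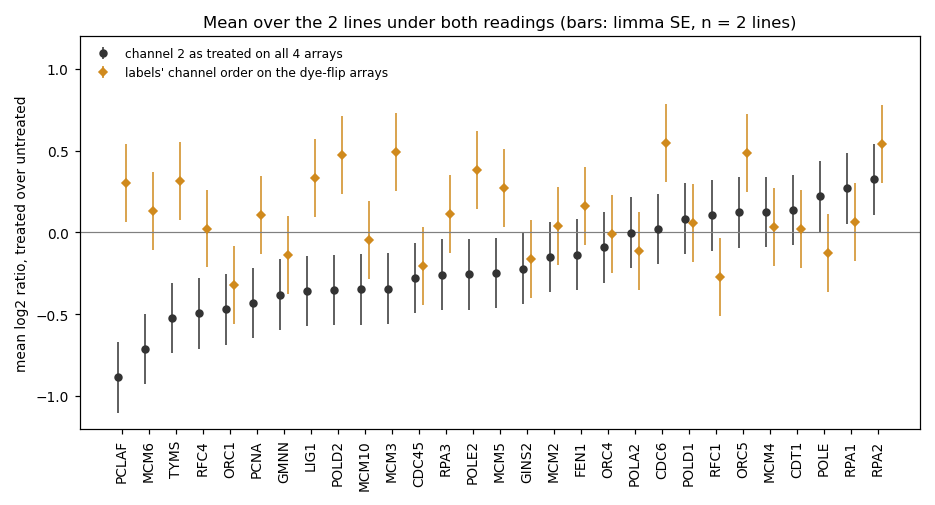
Mean log2 ratio of treated over untreated RNA over the 2 lines (y axis) for each of the 29 members (x axis). Bars are limma's standard error, which is the same for every gene within a reading. Circles take channel 2 as treated on all 4 arrays and diamonds follow the labels' channel order. PCLAF is lowest at −0.89 among the circles and lies at 0.30 among the diamonds.

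The members' medians lay below those of all genes tested in the ratio of channel 2 over channel 1. Their median log2 ratio was −0.05 on the DLD-1 forward array, −0.36 on the DLD-1 swapped array, −0.14 on the HT-29 forward array and −0.16 on the HT-29 swapped array. Over all genes tested the medians were 0.03, −0.06, 0.07 and −0.02 in the same order, so the member median was the lower one on each of the 4 arrays. Ratios below 0 were seen for 17, 19, 17 and 18 of the 29 members on these arrays, where 46.8%, 55.7%, 43.2% and 51.1% of all genes were below 0. The median of the line means was −0.23 in DLD-1 and −0.18 in HT-29 against −0.04 and 0.04 over all genes. The labels' order gave member medians of 0.10 and 0.01 against 0.06 and 0.05. Whether RNA of these genes fell in treated cells thus depends on the channel reading. Because RNA came from whole cultures, fewer cells in S phase and less RNA per cell cannot be told apart in such a fall.

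The direction of the 2 forward arrays is the same under both readings, although dye and treatment cannot be told apart on them. On both of these arrays 11 of 29 members were below 0, against 29.7% of all genes, and 6 were above 0, against 39.7%. The 11 were PCLAF, RFC4, PCNA and RFC1 of the clamp group, MCM6, MCM10, ORC1, GMNN, CDC45, POLA2 and RPA3. The 6 were CDC6, ORC5, POLE, POLE2, RPA1 and RPA2. These lists changed with block medians set to 0. PCLAF, MCM10, GMNN and POLA2 were then no longer below 0 on both forward arrays, while MCM5, LIG1, FEN1, GINS2 and POLE were. POLE and POLE2 were no longer above 0 on both, while MCM3, ORC4 and POLA2 were. The mean of the 2 arrays had a median of −0.10 over members and 0.06 over all genes.

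**Figure D2:**
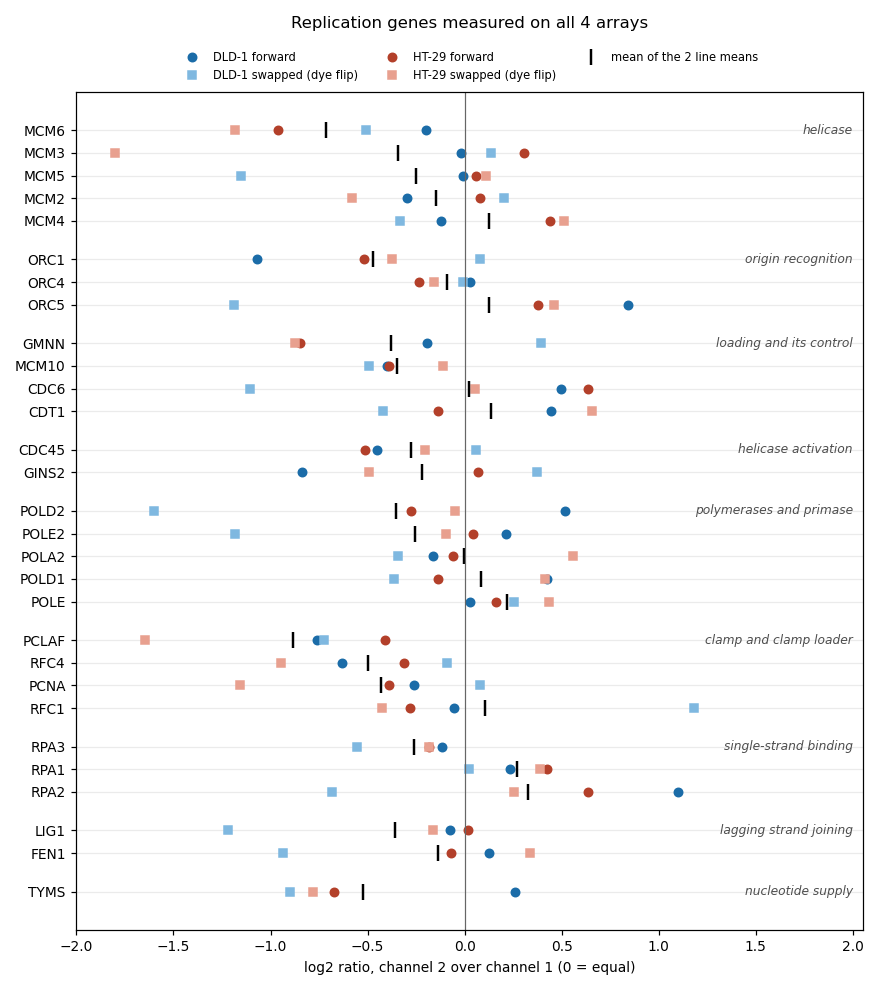
Log2 ratio of channel 2 over channel 1 (x axis) for each of the 29 members (y axis), grouped by role; circles are the arrays with treated RNA in Cy5, squares the swapped arrays, and black bars the mean of the 2 line means. PCLAF, RFC4, MCM6, MCM10 and RPA3 have all 4 points left of 0, and POLE and RPA1 have all 4 right of it.

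The clamp and its loader had a group median of −0.46 over 4 members, the lowest of the groups with at least 3 members under the working reading. In the labels' order it was 0.07 and not the lowest. PCLAF signal, as intensity minus local background, was 2315 in channel 1 and 1639 in channel 2 of the DLD-1 forward array, then 3041 and 1632 for the swapped one. In HT-29 it was 534 and 463 (forward), then 3163 and 1024 (swapped). Channel 2 was dimmer on all 4 arrays and above background in both channels of each. After normalization the log2 ratios were −0.76 and −0.73 in DLD-1 (mean −0.74 ± 0.03, SD, 2 arrays) and −0.41 and −1.65 in HT-29 (mean −1.03 ± 0.87). The HT-29 value therefore came mainly from the swapped array. Without that array the mean over the lines was −0.58 and did not pass (adjusted p = 0.822), and without the DLD-1 forward array it was −0.88 with an adjusted p of 1.00. Over 14 alternatives the limma adjusted p ranged from 0.00883 to 1.00 and 4 called PCLAF lower. The PCLAF spot lay in a block whose median ratio was −0.58, 0.40, −0.42 and −0.16 on the 4 arrays. With block medians set to 0 the PCLAF ratios were −0.18, −1.13, 0.01 and −1.49 and the mean of −0.70 did not pass (adjusted p = 0.883). ORC1 was printed in the same block. By the labels' order PCLAF had a mean of 0.30 (adjusted p = 0.680).

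PCNA, the sliding clamp itself, gave signals of 10261 and 10723 (channels 1 and 2) on the DLD-1 forward array and 15392 and 10205 on its swapped partner. The HT-29 pair gave 3685 and 2685, then 12922 and 5185. Its log2 ratios were −0.26, 0.08, −0.39 and −1.16, in the order DLD-1 forward, DLD-1 swapped, HT-29 forward and HT-29 swapped that holds for all 4-array values, so the HT-29 arrays lay below both DLD-1 arrays. The DLD-1 mean was −0.09 ± 0.24 and the HT-29 mean −0.78 ± 0.54. Over both lines −0.43 did not pass (adjusted p = 0.983). RFC4, a subunit of the clamp loader, had −0.63, −0.09, −0.31 and −0.95, below 0 on all 4 arrays, with a mean of −0.50 that did not pass (adjusted p = 0.734). RFC1, the large subunit of the loader, had −0.05, 1.18, −0.28 and −0.43, and only the DLD-1 swapped array was above 0. RFC5 was measured in DLD-1 alone, at 0.26 and 0.37. RFC2 exceeded background on the DLD-1 swapped array alone and RFC3 on no array.

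Ratios below 0 on all 4 arrays were found for 5 of the 29 members, PCLAF, RFC4, MCM6, MCM10 and RPA3, where 3.56% of all genes met this count. POLE and RPA1 were above 0 on all 4, where 4.31% of all genes were. With block medians set to 0 there were 7 below 0 (MCM6, RFC4 and RPA3 again, with LIG1, MCM5, ORC1 and PCNA), against 4.93% of all genes, and 0 above, against 4.77%. The labels' order left 0 members below 0 on all 4 arrays, against 5.62% of all genes, and 1, POLE2, above 0, against 10.3%. That order with block medians set to 0 gave 3 below 0 (GINS2, POLE and RFC1), against 8.57%, and 3 above 0 (CDC6, MCM3 and RPA2), against 17.5%. Counting signs with block medians at 0 was chosen after seeing the data.

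Of the helicase subunits MCM6 had the lowest mean over both lines under the working reading. Its ratios were −0.20 and −0.51 on the DLD-1 arrays and −0.96 and −1.18 on the HT-29 arrays. Both HT-29 ratios lay below both DLD-1 ratios, although MCM2, MCM5 and MCM3 were each lower than MCM6 on 1 array. Signals (channel 1, then 2) were 4204 and 4274 for DLD-1 forward, 4869 and 2913 for DLD-1 swapped, 778 and 402 for HT-29 forward, and 2471 and 1139 for HT-29 swapped. The line means were −0.35 ± 0.22 in DLD-1 and −1.07 ± 0.16 in HT-29, which is 2.10-fold lower in channel 2. In the labels' order they were 0.15 ± 0.50 and 0.11 ± 1.52. The mean over both lines, −0.71, did not pass limma's test (adjusted p = 0.184), and it was 0.13 in the labels' channel order. The difference between the lines was not tested, since each line is 1 replicate.

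The other helicase subunits had ratios of both signs. MCM2 had −0.30, 0.20, 0.08 and −0.58 over the 4 arrays, with both signs in each line. MCM3 had −0.02, 0.13 and 0.31 on the first 3 and −1.80 on the HT-29 swapped array, where channel 2 was not above background (834 in channel 1 and 62 in channel 2). MCM4 was at −0.12 and −0.33 in DLD-1 and 0.44 and 0.51 in HT-29, and MCM5 at −0.01 and −1.15 in DLD-1 and 0.06 and 0.11 in HT-29. None of these 4 passed (adjusted p 0.983 to 0.992). The 5 measured subunits, which assemble into 1 ring with MCM7, thus ranged from −0.71 to 0.12 in the mean over both lines.

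Of the origin recognition subunits, ORC1, the subunit that human cells degrade once S phase has begun, had −1.07 and 0.08 in DLD-1 and −0.52 and −0.37 in HT-29. Its mean of −0.47 did not pass (adjusted p = 0.843). Without the DLD-1 swapped array it was −0.76 and passed (adjusted p = 0.0337). Its spot shared the block of PCLAF, and with the block median set to 0 the DLD-1 values were −0.49 and −0.33. ORC4 stayed between −0.23 and 0.03 on all 4 arrays. ORC5 had 0.84 and −1.19 in DLD-1 and 0.38 and 0.46 in HT-29, from 1 of its 2 spots, since the other was not above background on any array. Channel 1 of the spot used was not above background on the HT-29 forward array. With the block median set to 0, ORC5 had 0.30 and −0.80 in DLD-1 and 0.01 and 0.08 in HT-29. ORC2 was measured in HT-29 alone (−0.68 and 0.17), and ORC3 (−1.02 and 0.35) and ORC6 (0.43 and 0.17) in DLD-1 alone.

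The genes that load the helicase or limit its loading, grouped here with MCM10, had ratios of both signs. GMNN encodes geminin, which binds CDT1 and prevents a second round of loading. Its ratios were −0.19 and 0.39 in DLD-1 and −0.85 and −0.88 in HT-29, where the 2 arrays lay close together (mean −0.86 ± 0.02, 1.82-fold lower in channel 2). The labels' order gave an HT-29 mean of 0.01 ± 1.22. Over both lines GMNN had −0.38 and did not pass (adjusted p = 0.983). MCM10, which binds the helicase as it is activated, had −0.40, −0.49, −0.39 and −0.11, with a mean of −0.35 that did not pass (adjusted p = 0.983). On all 4 arrays it was below 0, and its block medians were −0.32, −0.07, −0.42 and 0.13. CDC6 had 0.50 and −1.11 in DLD-1 and 0.63 and 0.05 in HT-29, and CDT1 had 0.45, −0.42, −0.14 and 0.66. Both loading factors had 1 array of each sign in DLD-1.

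Of the factors that switch the helicase on, CDC45 had −0.45 and 0.06 in DLD-1 and −0.52 and −0.20 in HT-29 (mean −0.28, adjusted p = 0.983). GINS2 had −0.84, 0.37, 0.07 and −0.49, with no order between the lines. CDC7, the kinase that phosphorylates the helicase, was measured in HT-29 alone, at −0.39 and −0.33. Its mean there was −0.36 ± 0.04, and in the labels' order −0.03.

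The polymerase subunits were spread on both sides of 0, with a group median of 0.00 over 5 members. POLE, the catalytic subunit of polymerase epsilon, gave signals (channel 1, then 2) of 11658 and 15686 for DLD-1 forward, 9332 and 7633 for DLD-1 swapped, 6332 and 7879 for HT-29 forward, and 7960 and 9661 for HT-29 swapped. Its ratios of 0.03, 0.25, 0.16 and 0.44 were all above 0, and the mean of 0.22 did not pass (adjusted p = 0.983). They come from 1 of its 2 spots; the other had −0.34, 0.07, −0.40 and −0.17 and was not above background on the DLD-1 forward array. POLE2, an accessory subunit of the same enzyme, had 0.21, −1.18, 0.04 and −0.09. With the signs of the labels' order its values were above 0 on all 4 arrays, with a mean of 0.38 (adjusted p = 0.559).

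POLD2, a subunit of polymerase delta, had 0.52 and −1.60 in DLD-1 and −0.28 and −0.05 in HT-29. The DLD-1 arrays had opposite signs, with a mean of −0.54, or 1.06 ± 0.77 in the labels' order. The mean over both lines was −0.35 (adjusted p = 0.983), and 0.47 in the labels' order (adjusted p = 0.444). POLD1, its catalytic partner, had 0.42, −0.36, −0.14 and 0.41, and POLA2, a regulatory subunit of polymerase alpha, had −0.16, −0.34, −0.06 and 0.56. The primase subunits PRIM1 (−0.04 and −1.08) and PRIM2 (0.22 and −0.33) were measured in DLD-1 alone.

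Replication protein A coats single-stranded DNA as a trimer of RPA1, RPA2 and RPA3, and its genes had different ratios. RPA1, the large subunit, had 0.23, 0.02, 0.43 and 0.39, a mean of 0.27 that did not pass (adjusted p = 0.983). RPA3, the small subunit, had −0.12, −0.55, −0.18 and −0.19 and a mean of −0.26 (adjusted p = 0.983). RPA1 lay above RPA3 on each of the 4 arrays under the working reading, while in the labels' order the means were 0.06 and 0.11. RPA2 had 1.10 and −0.68 in DLD-1 and 0.63 and 0.25 in HT-29 (mean 0.32, adjusted p = 0.983). Without the DLD-1 swapped array the RPA2 mean was 0.77 and passed (adjusted p = 0.0313), and without the DLD-1 forward array it was −0.12.

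**Figure D3:**
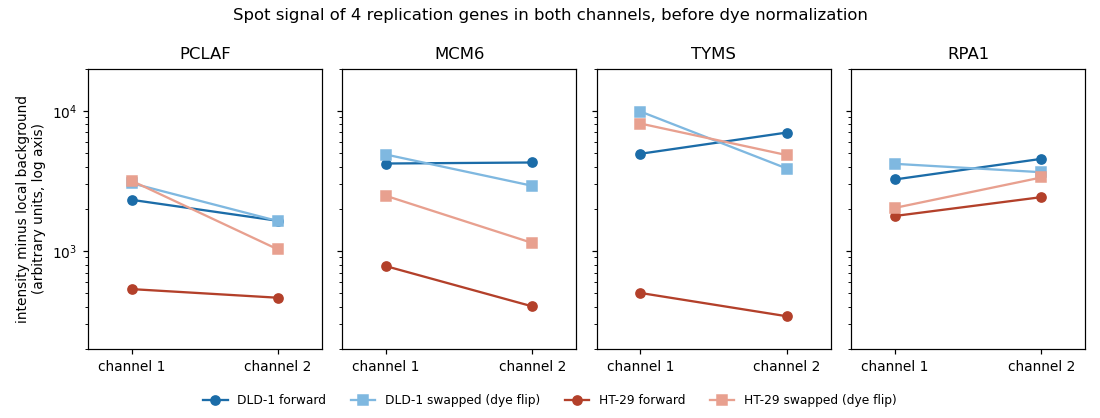
Intensity minus local background (y axis, log scale, arbitrary units, before dye normalization) in channels 1 and 2 (x axis) for PCLAF, MCM6, TYMS and RPA1; each line joins the 2 channels of 1 array. PCLAF was dimmer in channel 2 on all 4 arrays, while TYMS had 4934 and 6992 on the DLD-1 forward array and was dimmer in channel 2 on the other 3.

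LIG1, the ligase that seals Okazaki fragments, had −0.08 and −1.22 in DLD-1 and 0.02 and −0.16 in HT-29 (mean −0.36, adjusted p = 0.983). FEN1, the nuclease that trims these fragments, had 0.12 and −0.93 in DLD-1 and −0.07 and 0.34 in HT-29. For both genes the DLD-1 mean (−0.65 ± 0.81 for LIG1 and −0.41 ± 0.75 for FEN1) rested on the swapped array. TYMS, which makes thymidylate for DNA synthesis, had 0.26 and −0.90 in DLD-1 and −0.67 and −0.78 in HT-29. Its signal (channel 1, then 2) was 4934 and 6992 for DLD-1 forward and 9876 and 3872 for DLD-1 swapped, then 501 and 342 for HT-29 forward and 8103 and 4826 for HT-29 swapped. The HT-29 mean was −0.73 ± 0.08, 1.66-fold lower in channel 2 (0.05 ± 1.03 in the labels' order), and the mean over both lines of −0.52 did not pass (adjusted p = 0.685). It was −0.23 without the DLD-1 swapped array and −0.81 without the DLD-1 forward array. In the labels' order it was 0.32 (adjusted p = 0.653).

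Within the lines, ratios below 0 on both arrays outnumbered ratios above 0 among the members under the working reading. Of 31 members measured in HT-29, 14 were below 0 on both arrays, against 28.3% of all genes measured there, and 6 were above 0 on both, against 27.9%. POLE is not among the 6, because both of its spots were measured in HT-29 and their average there was −0.12 and 0.14. In the labels' order 6 members were below 0 and 5 above 0, against 18.0% and 25.8%. Of 34 members measured in DLD-1, 10 were below 0 on both arrays, against 16.9%, and 4 above 0, against 15.8%. In the labels' order these were 9 and 11, against 28.1% and 39.2%. No member was at least 2-fold lower or higher on both arrays of a line under either reading. For the DLD-1 arrays 0.0100% and 0.161% of all genes were under the working reading and 0.0201% and 0.311% in the labels' order. For the HT-29 arrays the shares were 0.0296% and 0.118%, and 0.00% and 0.227%.

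Most members at least 2-fold lower in channel 2 of a single array were so on a swapped array. These were CDC6, LIG1, MCM5, ORC5, POLD2 and POLE2 on the DLD-1 swapped array (6 of 29, against 3.89% of all genes). On the HT-29 swapped array they were MCM3, MCM6, PCLAF and PCNA (4 of 29, against 2.59%). On the DLD-1 forward array only ORC1 was 2-fold lower (1.34% of all genes), and on the HT-29 forward array no member was (0.563%). RPA2 on the DLD-1 forward array (2.74%) and RFC1 on the DLD-1 swapped array (0.608%) were the members at least 2-fold higher; on the HT-29 arrays there were 0 (4.57% and 0.912% of all genes).

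Across the 29 members the arrays resembled each other unequally. The ratios of the 2 HT-29 arrays had r = 0.48 across members and 0.02 across all genes, and those of the 2 DLD-1 arrays −0.46 and −0.40. The DLD-1 forward array had r = 0.50 with the HT-29 forward array and 0.50 with the HT-29 swapped array across members, where all genes gave 0.48 and 0.15. The line means had r = 0.18 across members and 0.07 across all genes, and −0.21 and 0.19 in the labels' order, which also turns the sign of every r between a forward and a swapped array. These are descriptions over genes that share spots, blocks and dyes on the same arrays, and genes are not independent replicates.

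**Figure D4:**
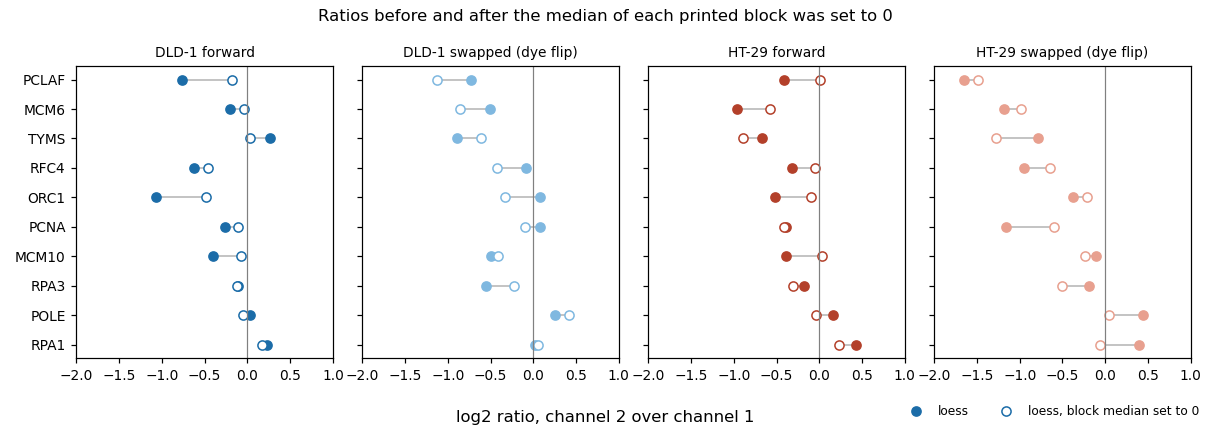
Log2 ratio of channel 2 over channel 1 (x axis) of 10 members (y axis) on each of the 4 arrays, as normalized (filled) and with the median of the spot's printed block set to 0 (open). PCLAF moves from −0.76 to −0.18 on the DLD-1 forward array and from −0.73 to −1.13 on the DLD-1 swapped array.

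Beyond the members, 44 further genes of replication and its supply lines were listed, of which 39 had a spot and 27 were measured on all 4 arrays. By limma 0 were called lower or higher over both lines under the working reading, against 0.0450% and 0.191% of all genes. At an unadjusted p under 0.05, 3 were lower (TOPBP1, TIPIN and CHAF1A), against 1.79% of all genes. At the same threshold 2 were higher (MCMBP and CCNE2), against 3.20%. The labels' order gave 1 lower (CHAF1A), against 1.84%, and 3 higher (CCNA2, CCNE2 and SLBP), against 9.22%. The lowest means were those of TOPBP1, a scaffold for helicase activation (−0.58), TIPIN, which steadies stalled forks (−0.45), and CHAF1A, the large subunit of the chromatin assembly factor (−0.43). The highest were MCMBP, which binds MCM proteins (0.51), cyclin CCNE2 (0.45) and the phosphatase CDC25A (0.25). TOPBP1 had −0.39, 0.09, −0.46 and −1.54 on the 4 arrays, so the HT-29 swapped array set most of its mean. On that array its channel 2 was not above background. These values come from 1 of its 2 spots. The other had −0.57, 0.72, −0.30 and 0.03 and was not above background on the DLD-1 forward array. CHAF1A had −0.66, 0.39, −1.41 and −0.06, so its mean rested on the forward arrays. On both of those its channel 2 was not above background. In the labels' channel order CCNE2 rose (mean 0.87, limma adjusted p = 0.0472), where 0.653% of all genes were called higher. Its ratios of channel 2 over channel 1 were 0.75 and −1.23 in DLD-1 and 1.89 and 0.41 in HT-29. The median over these 27 genes was −0.08, against −0.25 over the 29 members and 0.01 over all genes tested. By the labels' order these medians were 0.10, 0.06 and 0.05.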

How the data were processed

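RNA ratios came from 4 oligonucleotide arrays of 2 colours. Per the file headers, the deposited scanner files give each spot's intensity, its local background and background SD in both channels, and a background-subtracted intensity, all on a linear scale. The authors also deposited a log2 ratio per spot, channel 1 over channel 2, whose median is 0 on each array; the series table repeats it with its sign turned. The sources used here name no scanner or software.

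Background was corrected with normexp (offset 50), and 1 loess curve per array (span 0.3) gave no weight to controls and spots marked bad, in R 4.3.3 with limma 3.58.1. Of 29640 spots, 15058 were named for 12728 genes. The platform table named 14200, gave 447 several genes and left 14993 unlisted, of which 858 were named from the files' descriptions. The 1 spot that names MCM5 among several genes was left out. Spots were averaged per gene, then arrays per line. A two-sided limma test set the mean of the 2 lines against 0, adjusted by Benjamini-Hochberg over 8880 genes at a threshold of 0.05. The smallest p of an exact sign-flip test over 2 lines is 0.5, so limma's p depends on 1 variance estimated over all genes. Only the line means, the limma test and the turning of signs were tested on simulated data. Those data were independent normal values without printed blocks, dye effects, background or normalization.

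The members and lists were chosen with earlier results of these data known. Genes singled out were members called under either reading, members with 1 sign on all 4 arrays, and the largest mean of each role; other members are given to account for all. Of other pathway genes, those called and the 3 lowest and 3 highest means are named. Alternatives changed the channel reading, dye orientation, background correction, normalization, dim-probe filter, source of ratios, choice among probes and arrays used.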

Additional observations from a re-analysis of the deposited data

Results flagged for a closer look

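MCM4 and MCM5 had ratios below 0 on both DLD-1 arrays and above 0 on both HT-29 arrays under the working reading. The HT-29 line mean exceeded the DLD-1 line mean by 0.70 for MCM4 (line means −0.23 and 0.48) and by 0.67 for MCM5 (line means −0.58 and 0.08). The difference was not tested, because each line is 1 replicate. On the DLD-1 forward array the MCM5 ratio was only −0.01, and on the HT-29 forward array channel 1 of MCM4 was not above background. With block medians set to 0, MCM5 had −0.31 and −0.72 in DLD-1 and −0.18 and −0.36 in HT-29, so its signs were no longer opposite. MCM4 then had −0.31 and −0.04 in DLD-1 and 0.29 and 0.28 in HT-29. Opposite signs of this kind, in either direction, were seen for 2 of 29 members (6.90%) and 7.88% of all genes tested, so the members' share is near that of all genes. In the labels' channel order they were seen for 6 members (20.7%) and 12.0% of all genes: GINS2, MCM2 and MCM3 were below 0 in DLD-1 and above 0 in HT-29, CDT1, FEN1 and POLD1 the reverse, and MCM4 and MCM5 were not among them.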

How the results depend on the processing

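The call of 1 member, PCLAF, became 0 calls in the labels' channel order, on the forward arrays alone, with plain background subtraction, with median centring, with block medians set to 0, without the dim-probe filter, with the authors' log2 ratios, and in the labels' order with block medians set to 0, a combination chosen after seeing the data. Leaving out 1 array gave 0 to 3 calls; the 3, without the DLD-1 swapped array, were ORC1, PCLAF and RPA2. The median over members and lines moved from −0.25 to 0.0613 in the labels' order, 0.14 in that order with block medians at 0, −0.10 on forward arrays alone, −0.17 with median centring, −0.18 with block medians at 0 and −0.20 with the authors' ratios, and to −0.27 to −0.12 with 1 array left out. The DLD-1 median of −0.23 became 0.10 in the labels' order, 0.17 with block medians at 0 as well, and −0.35 to −0.07 with 1 array left out. The HT-29 median of −0.18 became 0.0132 in the labels' order, 0.0925 with block medians at 0 as well, −0.14 on the forward array, −0.22 with plain subtraction, −0.0935 with median centring, −0.15 with block medians at 0, −0.23 without the filter, −0.0939 with the authors' ratios, and −0.19 to −0.10 with 1 array left out.

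In the labels' order the means of PCLAF (0.30), RFC4 (0.0238), MCM6 (0.13), LIG1 (0.33), TYMS (0.32), POLD2 (0.47), POLE2 (0.38), RPA3 (0.11) and POLE (−0.13) turned sign, since that order turns the ratios of both swapped arrays. With block medians at 0 as well, PCLAF (0.61), RFC4 (0.14), MCM6 (0.31), CDC45 (0.0508), LIG1 (0.28), MCM10 (0.15), TYMS (0.26), POLD2 (0.28), POLE2 (0.36), RPA3 (0.0765) and POLE (−0.14) did. On forward arrays alone POLD2 (0.12) and POLE2 (0.13) did. With 1 array left out POLD2 ranged from −0.88 to 0.18, POLE2 from −0.60 to 0.0921, TYMS from −0.81 to −0.23, LIG1 from −0.64 to −0.0739, CDC45 from −0.41 to −0.15 and RPA2 from −0.12 to 0.77. Requiring both channels above background, or the brightest probe, changed no count or median by the measure used. The causes were not tested. Each ratio already sets treated against untreated RNA of 1 array, and both arrays of a line were averaged. No further pairing was used, since the labels give no replicate numbers to block on. Signal over background limited the 4-array comparison to 29 of the 40 members with a spot.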
